A study of Mus musculus and Rattus norvegicus with 2 samples.

Results

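Reads that the depositors assigned to miRNA precursor entries, rather than to mature miRNA entries, were described in sperm of the mouse and the rat. They were taken by annotation: an Rfam entry whose family name begins with mir- or let-, or a GenBank entry typed as microRNA. They comprised 1322 of 89179 distinct sequences in the mouse and 2315 of 137388 in the rat, and 7330 and 35878 reads. This was 1.06% (95% interval 1.04 to 1.08) of the listed mouse reads and 1.71% (1.69 to 1.72) of the listed rat reads. Of the 1322 mouse sequences, 53 carried no count and add nothing to the read totals. Mouse sequences under other labels that carried no count are left out of the listed reads in the same way.

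The mice were C57BL/6 animals aged 2 months, and the rats were Sprague Dawley animals weighing 450 g. Both libraries used cauda epididymal sperm, the cells stored in the tail of the duct through which sperm pass after the testis. RNA between 18 and 45 nt was sequenced on an Illumina GAIIx, with 1 library per species. How many animals were pooled, if any were, is not stated in the labels. There is no replicate error, so no test was made, and every interval is an exact 95% Clopper-Pearson interval for counting error only.

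A miRNA is cut from a folded hairpin, first in the nucleus by Drosha and then in the cytoplasm by Dicer, and one strand of the resulting duplex is loaded into an Argonaute protein. The seed, the bases from position 2 to 8 counted from the 5′ end, guides the choice of target messages. Positions of both cuts vary, and terminal nucleotidyl transferases can add bases, mostly A or U, to the 3′ end, so 1 miRNA is found as several isoforms, called isomiRs. A read that runs past the annotated mature sequence still lies in the hairpin.

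The miRNAs on which the results below turn are shown first, so that the reads can be set against the mature form. The mature sequences are those of RefSeq for mouse build GRCm38.p6, with the seed in capitals, and are written as RNA. Their positions are chr9:108568325-108568347 for miR-191-5p, chr11:96317186-96317208 for miR-10a-5p, chr2:74726074-74726096 for miR-10b-5p, chr19:46342790-46342811 for miR-146b-5p and chr8:107551288-107551308 for miR-140-3p, all on the plus strand, and chr4:120772660-120772681 for miR-30e-5p, chr11:86584120-86584141 for miR-21a-5p, chr9:51103574-51103595 for miR-34b-3p and chrX:52741854-52741874 for miR-92a-3p, on the minus strand. The annotation at each position is a miRNA hairpin. miR-10a-5p and miR-10b-5p share a seed, and the other 7 shown each have a seed of their own.
miR-191-5p: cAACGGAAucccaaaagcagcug
miR-10a-5p: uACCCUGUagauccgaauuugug
miR-10b-5p: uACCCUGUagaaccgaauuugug
miR-146b-5p: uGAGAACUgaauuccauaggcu
miR-30e-5p: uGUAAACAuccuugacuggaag
miR-21a-5p: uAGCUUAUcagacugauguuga
miR-140-3p: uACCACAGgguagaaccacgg
miR-34b-3p: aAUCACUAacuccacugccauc
miR-92a-3p: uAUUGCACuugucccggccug

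Frequent precursor-assigned reads of the same miRNAs follow as deposited, in DNA letters, with the bases past the mature 3′ end in capitals. They show the pattern on which most of the results below turn, a complete mature sequence with 1 or 2 further bases. The forms of miR-21a-5p differ in the added bases, and those of miR-10b-5p in the added base or the start.
miR-191-5p read: caacggaatcccaaaagcagctgT
miR-10a-5p read: taccctgtagatccgaatttgtgT
miR-10b-5p read with T: taccctgtagaaccgaatttgtgT
miR-10b-5p read with A: taccctgtagaaccgaatttgtgA
miR-10b-5p read from base 2: accctgtagaaccgaatttgtgT
miR-146b-5p read: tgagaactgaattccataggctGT
miR-30e-5p read: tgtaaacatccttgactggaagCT
miR-21a-5p read with C: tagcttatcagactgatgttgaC
miR-21a-5p read with CT: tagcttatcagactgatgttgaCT
miR-140-3p read: taccacagggtagaaccacggA
miR-34b-3p read: aatcactaactccactgccatcT
miR-92a-3p read: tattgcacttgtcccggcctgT

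The miR-191-5p read was counted 639 times in the mouse and 273 times in the rat. The miR-10a-5p read was counted 280 and 30 times. The miR-10b-5p read that starts at base 1 and ends in T was counted 351 and 45 times, and the one ending in A 128 and 30 times. These 4 were more frequent in the mouse library, although that library listed fewer reads. The miR-34b-3p read ran the other way, with 13 mouse and 138 rat reads, as did the miR-21a-5p read ending in C, with 28 and 134. The miR-92a-3p read was counted 99 and 12 times, and the miR-146b-5p read 155 and 0 times.

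Not all precursor-assigned reads were miRNA by sequence. A read was called miRNA when it could be placed in a mouse RefSeq hairpin with at most 2 mismatches or shared a run of 18 bases with reads of its own library's mature miRNA entries. This held for 4592 of 7330 mouse reads, or 62.6% (61.5 to 63.8), and for 3124 of 35878 rat reads, or 8.71% (8.42 to 9.0). In the mouse, 1330 further reads shared a run of 18 bases with reads assigned to rRNA and 727 with reads assigned to tRNA. In the rat, 11422 shared such a run with rRNA reads, 1 with tRNA reads, and 20819, or 58.0% (57.5 to 58.5), matched none of these groups. Perfect 3-base repeats of at least 18 nt made up 110 mouse and 512 rat reads. Thus most rat reads with a precursor label were not matched to a miRNA by sequence. Since hairpins of the mouse were used for both libraries, a rat miRNA that differs from its mouse form at more than 2 bases can be missed. A read from a hairpin outside the set used can be missed in either library. Among reads under GenBank entries, 76.9% (mouse) and 99.3% (rat) were miRNA by sequence, against 35.4% and 0.386% of the reads under Rfam families.

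**Figure D1:**
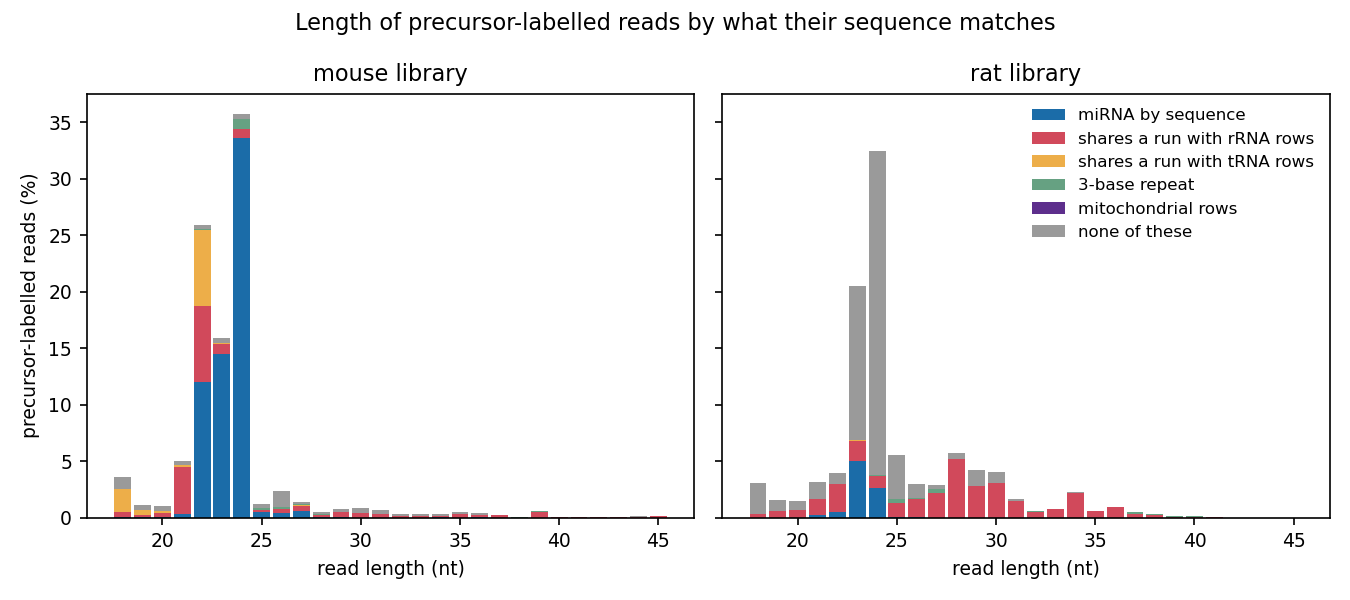
Length of precursor-assigned reads (nt, horizontal) against their share of all precursor-assigned reads (percent, vertical) in the mouse library (left) and the rat library (right), with colours for what the sequence matches. The 24 nt bar is the highest in each library, in the rat through 1 mir-689 sequence of 8521 reads, with miRNA reads filling most of the mouse bar. Reads matching none of the groups fill most of the rat bar.

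Reads of 24 nt formed the largest length class in each library, with 2622 reads in the mouse, or 35.8% (34.7 to 36.9), and 11636 in the rat, or 32.4% (31.9 to 32.9). A single sequence of mir-689 held 8521 of the rat reads of 24 nt, and without it 3115 remained, fewer than the 7376 rat reads of 23 nt. Without the most abundant sequence of each library, 24 nt held 29.6% of mouse and 11.4% of rat reads. Of the mouse reads of 24 nt, 94.0% (93.0 to 94.9) were miRNA by sequence, against 8.14% (7.65 to 8.65) in the rat. Within the miRNA reads the most frequent length was 24 nt in the mouse, with 53.7% (52.2 to 55.1), and 23 nt in the rat, with 58.2% (56.5 to 60.0), where 24 nt held 30.3%. In the mature rows of the same files, 24 nt held 0.396% of mouse reads and 0.424% of rat reads. This contrast can follow in part from the assignment, since a read longer than a mature entry cannot match it over its whole length. A T at the 5′ end, the base that Argonaute proteins often hold there, began 61.5% of the mouse and 51.6% of the rat miRNA reads.

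The rat total was carried by a single Rfam family name, mir-689, with 31972 reads of 1468 sequences, or 89.1% of precursor-assigned rat reads. In the mouse it held 717 reads of 327 sequences, or 9.78%. No mir-689 read was placed in a hairpin in either library, and G and C made up 88.0% of the bases in the rat and 86.3% in the mouse. A run of 18 bases was shared directly with rRNA reads by 11407 rat reads (35.7%) and 329 mouse reads (45.9%). When a read could also be linked through another mir-689 read, the counts were 31786 (99.4%) and 690 (96.2%). The same linking raised the rat family mir-598, mostly 3-base repeats, from 10 to 447 of 565 reads. A linked count is therefore not specific to rRNA. The most frequent rat sequence alone had 8521 reads. Rat reads of mir-689 are shown with their most widely held run of 12 bases in capitals, which 24017 of the 31972 rat reads and none of the 717 mouse reads contained.
mir-689 rat read 1: cggCGGGTCCCCGCCtcgtcgccc
mir-689 rat read 2: cggCGGGTCCCCGCCtcgtcgcc
mir-689 rat read 3: cggggcgggtccccccgccgggc
mir-689 rat read 4: cgtccggCGGGTCCCCGCCtcgtcgccc
Their counts were 8521, 3123, 1464 and 1331. Reads 1, 2 and 4 overlap one another around that run and differ in where they begin and end. The libraries had 29 mir-689 sequences in common, which held 48 mouse and 490 rat reads. Without mir-689, precursor-assigned reads were 0.956% of listed mouse reads and 0.186% of listed rat reads, so the order of the species turned. The share that matched the entry without mismatch was 61.7% in the mouse and 91.4% in the rat with mir-689, and 58.6% and 57.1% without it.

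In the mouse, the Rfam family mir-1937 was second among all entries, with 846 reads or 11.5% of the precursor-assigned reads. Of these, 709 (83.8%) shared a run of 18 bases with tRNA reads and 687 (81.2%) ended with CCA, the bases added to the 3′ end of every mature tRNA. Only 203 of the 846 matched their entry without mismatch. In the rat the family held 200 reads, of which 109 (54.5%) ended with CCA and 0 shared a run with the listed tRNA reads. Mouse reads are shown with the terminal CCA in capitals, and had 277 and 155 reads.
mir-1937 mouse read 1: tcgtttcccggccaatgcaCCA
mir-1937 mouse read 2: tcgattcccggccaatgcaCCA

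A further 3 mouse entries from GenBank, typed as microRNA and without a gene symbol in RefSeq, held 600, 257 and 144 reads. Runs of 18 bases were shared with rRNA reads by 599, 257 and 143 of them, and 599 reads of the first entry also shared one with reads of the mitochondrial entries. The first entry was dominated by a sequence of 22 nt with 468 reads, a typical miRNA length. None of the 3 entries had a read in the rat. The family mir-598 held 565 rat and 54 mouse reads, of which 512 and 40 were repeats of 3 bases, with 77 rat reads of the form printed here.
mir-598 rat read: gaggaggaggaggaggaggaggaggag

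A mature arm could be found for 4522 mouse and 2973 rat miRNA reads, covering 130 and 109 miRNAs. The label of a read and the position of its 3′ end went together. Part of this can follow from the assignment itself, since a read longer than a mature entry cannot match it over its whole length. In the rows of the mature entries, 99.9% of 23386 placed mouse reads and 98.2% of 25826 placed rat reads ended at or before the mature 3′ end. In the precursor rows, 97.7% (97.2 to 98.1) and 93.0% (92.0 to 93.9) ended past it. The excess was 1 base in 80.2% of mouse and 74.3% of rat precursor reads, and 2 bases in 14.5% and 15.5%. For 8 miRNAs without a RefSeq mature entry the end was taken from the longest mouse mature row, which those rows cannot pass. They include miR-143-3p, miR-34c-5p, miR-30d-5p, miR-99b-5p, miR-375-3p and miR-486-5p, whose shares below depend on that choice in both libraries. With these left out, 97.4% of mouse and 93.6% of rat precursor reads ended past the mature end, against 0.0957% and 1.14% of mature-row reads.

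**Figure D2:**
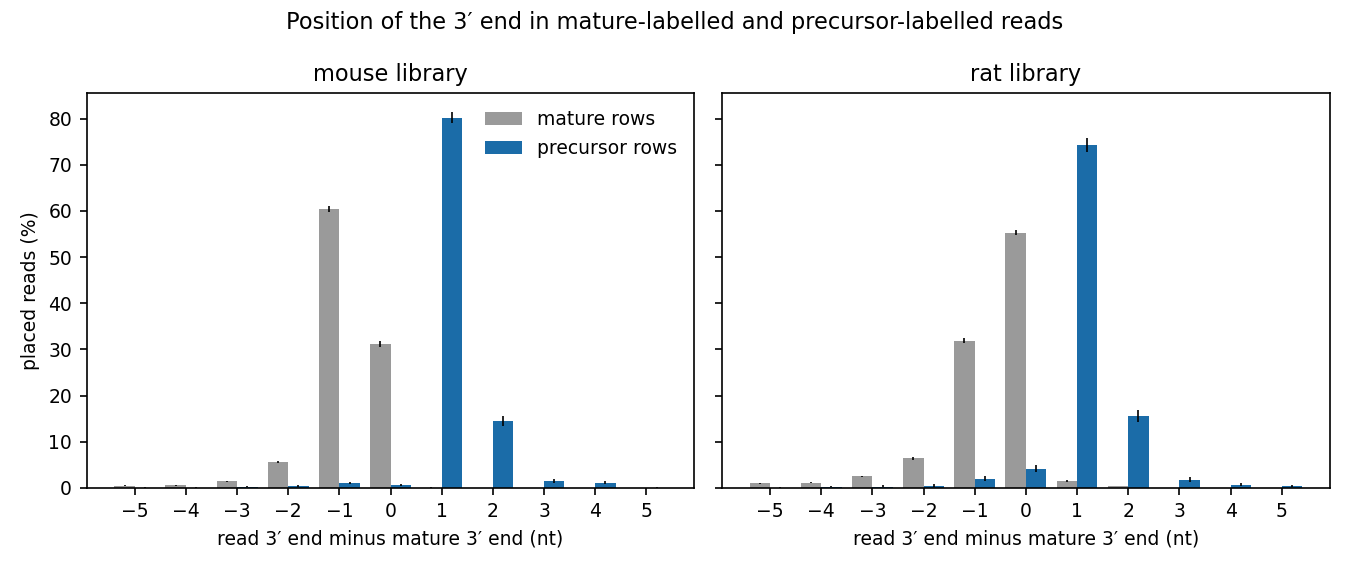
Distance in bases from the mature 3′ end to the 3′ end of the read (horizontal) against the share of placed reads (percent, vertical), for rows of mature entries (grey) and of precursor entries (blue), in the mouse (left) and the rat (right), with 95% counting intervals. Mature rows end at 0 or before it, and precursor rows peak at 1 base past it in both libraries.

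No precursor-assigned read had the same sequence as a mature row of its own library, since each sequence is listed once. Its first 18 bases were those of a mature row in 59.4% of mouse reads and 7.86% of rat reads. Across the libraries, 812 mouse reads of 18 sequences and 56 rat reads of 4 sequences were equal to a mature row of the other species. For these sequences the assignment as mature or precursor differed between the files. Of the 812 mouse reads, 585 were of miR-143-3p, 194 of miR-146b-5p and 27 of miR-183-5p. Of the 56 rat reads, 46 could not be placed and 9 were of let-7i-5p. miR-146b-5p, an NF-κB-induced regulator of innate immune signalling, had 203 precursor and 22 mature-row reads in the mouse, but 5 and 183 in the rat. The share of all its reads that ended past the mouse mature end was 90.2% (85.6 to 93.8) in the mouse and 85.6% (79.8 to 90.3) in the rat. Reads exactly 2 bases past it made up 183 of 225 mouse reads (81.3%) and 92 of 188 rat reads (48.9%), and reads 1 base past it 15 and 64. miR-143-3p, known from smooth muscle, had 646 precursor reads of 3038 in the mouse and 33 of 846 in the rat, where 281 of the 846 passed the mouse end. A difference between the species in precursor-assigned reads is therefore not, by itself, a difference in the miRNA.

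Counted over mature and precursor rows together, 4436 of 27908 placed mouse reads ended past the mature end, or 15.9% (15.5 to 16.3), and 3228 of 28799 rat reads, or 11.2% (10.8 to 11.6). The share varied far more between miRNAs than between the species. Among 28 miRNAs with at least 20 reads in each library and at least 20 precursor reads in 1 of them, it ran from 0.608% to 97.6% in the mouse, with a median of 21.9%, and from 2.19% to 98.1% in the rat, with a median of 27.8%. It was higher in the mouse for 13 and in the rat for 15. Since nearly all precursor reads end past the mature end, this choice favours miRNAs with many such reads. The medians hold for these 28 only.

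At the upper end, miR-140-3p, known from cartilage, ended past the mature end in 41 of 42 mouse reads and 157 of 160 rat reads. miR-30e-5p, of the widely expressed miR-30 family, did so in 92 of 103 mouse reads (89.3%) and 131 of 147 rat reads (89.1%). In both libraries these molecules were found mainly in a form longer than the annotated one. Its relative miR-30d-5p stood at 38.2% (30.6 to 46.3) and 36.2% (30.0 to 42.7), and miR-30a-5p at 13.3% (9.87 to 17.3) and 25.9% (21.2 to 31.0). At the lower end, miR-16-5p, which restrains cell cycle genes, stood at 1.62% (1.0 to 2.46) of 1300 mouse reads and 4.90% (4.19 to 5.70) of 3242 rat reads.

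The direction differed among the abundant miRNAs. The share past the mature end was higher in the rat for miR-16-5p, with 1.62% (1.0 to 2.46) of 1300 mouse reads and 4.90% (4.19 to 5.70) of 3242 rat reads, and for miR-143-3p, with 21.2% (19.8 to 22.7) of 3038 and 33.2% (30.0 to 36.5) of 846. miR-191-5p, abundant in sperm, ended past the mature end in 679 of 3003 mouse reads, or 22.6% (21.1 to 24.1), and in 322 of 3242 rat reads, or 9.93% (8.92 to 11). miR-10a-5p, encoded in a Hox cluster, stood at 15.7% (14.7 to 16.8) of 4627 and 6.25% (5.45 to 7.14) of 3278. For miR-10b-5p, its paralogue in another Hox cluster, the values were closer, at 10.8% (10.1 to 11.4) of 8970 and 8.18% (7.34 to 9.08) of 3950. miR-34c-5p, of the p53-responsive miR-34 family and known for its level in male germ cells, showed a wide gap, with 53 of 318 mouse reads (16.7%, 12.7 to 21.2) and 130 of 5949 rat reads (2.19%, 1.83 to 2.59). For miR-34c-5p the end is that of the longest mouse mature row. miR-21a-5p, induced by STAT3, stood at 59.5% (50.4 to 68.2) of 126 and 35.2% (31.4 to 39.1) of 614. miR-375-3p, a miRNA of epithelial and endocrine cells, with its end taken in the same way, ran the other way, at 4.04% (2.33 to 6.48) of 396 and 17.3% (12.4 to 23.3) of 202.

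**Figure D3:**
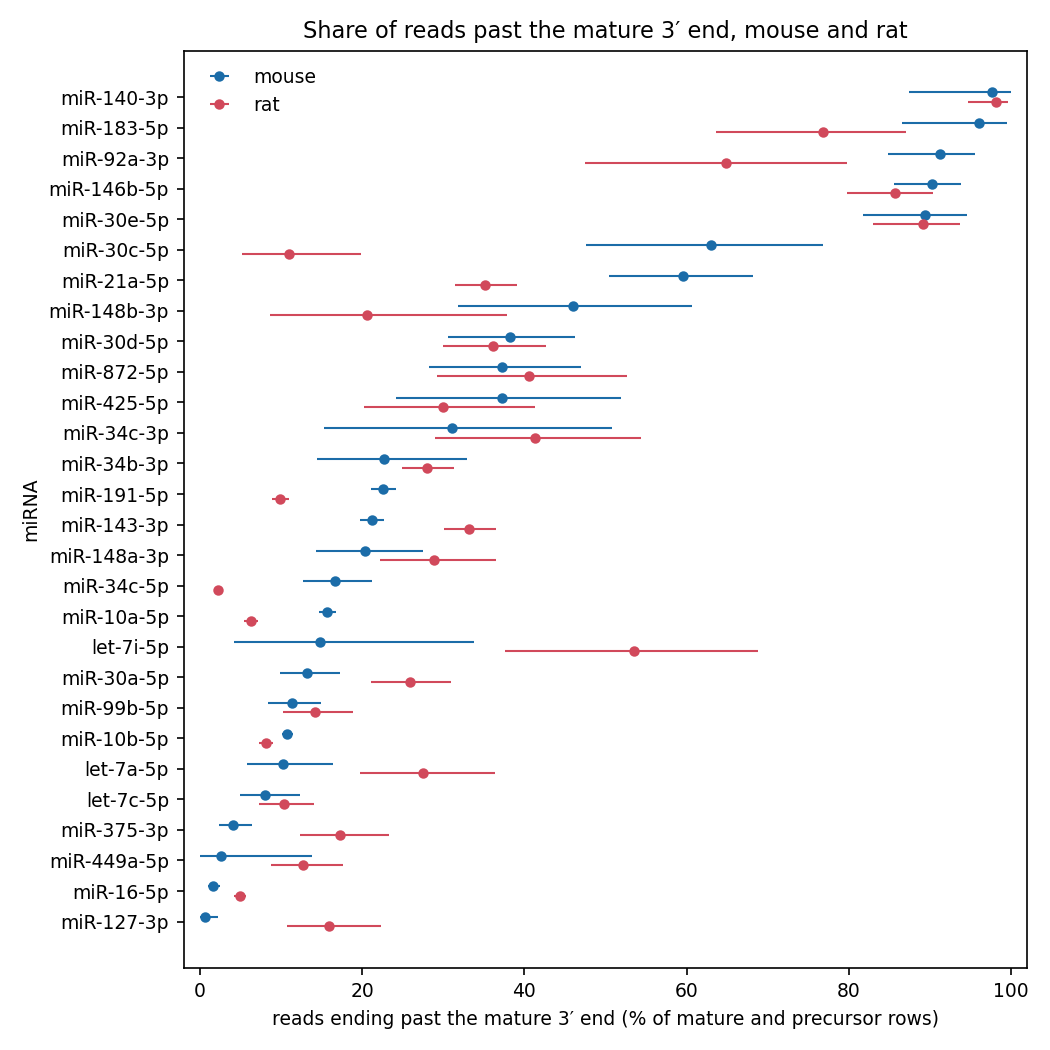
Share of reads ending past the mature 3′ end (percent of mature and precursor rows, horizontal) for 28 miRNAs (vertical), in the mouse (blue) and the rat (red), with 95% counting intervals. The miRNAs span nearly the whole axis, miR-140-3p and miR-30e-5p are high in both libraries, and miR-34c-5p, miR-10a-5p and miR-191-5p are lower in the rat.

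Reads under labels other than the 2 kinds of miRNA entry changed the order of the libraries for 2 of the 28 miRNAs. miR-127-3p, from an imprinted cluster, was at 0.608% of 329 mouse reads and 16% of 169 rat reads, but its mouse share was 22.1%, against an unmoved 16% for the rat, when reads of any label were counted.

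The base at the very 3′ end differed from the precursor entry in 1752 of the 4417 mouse precursor reads past the mature end, or 39.7% (38.2 to 41.1), and in 990 of 2764 rat reads, or 35.8% (34 to 37.6). In the other reads the last base was that of the hairpin. Of the differing bases, 48.8% were T and 35.6% A in the mouse, 39.3% T and 45.5% A in the rat, and C made up 1.37% and 2.63%. Mismatches of miRNA reads were concentrated at this place: 80.1% (78.4 to 81.7) of all their mismatched bases in the mouse and 70.1% (67.8 to 72.4) in the rat lay at the last position. In precursor-assigned reads that shared a run with rRNA or matched no group, sequenced in the same libraries, the last position held 13.3% (9.85 to 17.4) and 7.01% (5.86 to 8.30) of the mismatched bases. Mature rows were left out, and nearly all placed precursor reads end past the mature end. The label can therefore itself favour mismatches at the last position, and it did not select the rRNA and unmatched reads in this way. How much this adds was not tested.

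The differing base varied from miRNA to miRNA. Only reads with a precursor label are counted here, and most rat reads of miR-143-3p past the mature end carried a mature label. miR-143-3p ended with a differing T in 510 of 645 mouse precursor reads past the mature end and in 25 of 30 such rat reads. miR-34b-3p, of the germ cell cluster with miR-34c, did so in 15 of 20 mouse and 153 of 220 rat reads. miR-92a-3p ended with a T that differed from the assigned entry in 103 of 113 mouse reads. More than 1 mouse hairpin holds this mature form, and the position printed above is of 1 of them. Whether T is the next base in another of its hairpins was not examined, and these reads are part of the pooled differing T given above. For miR-10a-5p and miR-10b-5p the next base of the hairpin is T, so a T there cannot count as differing. miR-10a-5p had 1 T, 235 A and 94 G in the mouse, and 0 T, 73 A and 44 G in the rat. miR-10b-5p had 4 T, 217 A and 106 G in the mouse, and 1 T, 71 A and 50 G in the rat. miR-191-5p differed at the last base in 8 of 679 mouse and 13 of 322 rat reads, and its added T, in 671 and 309 reads, is the next base of the hairpin. A base that matches the hairpin can be cut from it or added, and the 2 cannot be told apart here.

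Of 9 miRNAs with at least 10 differing reads in both libraries, 8 had the same leading base in both. The next base of the hairpin cannot count as differing, so part of this likeness can be fixed by the hairpins. A led for miR-10a-5p, miR-10b-5p, miR-21a-5p, miR-872-5p and miR-99b-5p, and T for miR-143-3p, miR-34b-3p and miR-196b-5p. For miR-143-3p the rat value leaves out the reads past the end that carried a mature label, which were most of them. The exception was miR-375-3p, led by T in the mouse with 10 of 16 reads and by A in the rat with 19 of 35.

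**Figure D4:**
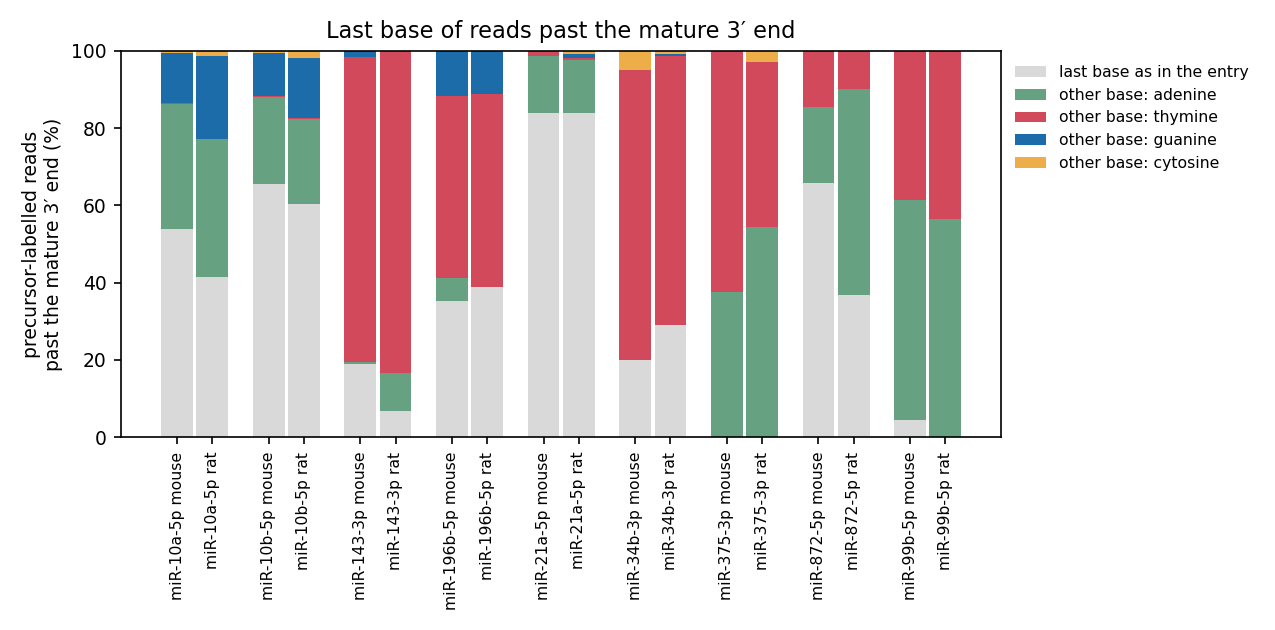
Last base of precursor-assigned reads past the mature 3′ end (percent of those reads, vertical) for 9 miRNAs, each with a mouse and a rat bar. Grey marks a base equal to the precursor entry, and the colours mark the other bases. Differing bases are mainly thymine in miR-143-3p and miR-34b-3p and adenine and guanine in miR-10a-5p and miR-10b-5p, in both libraries.

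At the 5′ end, precursor reads began 1 base inside the mature start in 14.5% (13.5 to 15.6) of mouse and 16.2% (14.9 to 17.6) of rat reads, against 4.16% and 1.88% of mature-row reads. The miR-10 pair supplied most of them. For miR-10b-5p this was 332 of 969 mouse reads (34.3%) and 219 of 328 rat reads (66.8%), while 4.89% of its mature-row reads did so in both libraries. For miR-10a-5p it was 31.9% and 49.2% of precursor reads, against 11.8% and 6.81% of mature-row reads. miR-140-3p had 24.4% and 27.4%. miR-183-5p, of the sensory miR-183 cluster, had 36 of 49 mouse reads. In miR-191-5p the share was 0.587% and 5.90%, and in miR-21a-5p it was 0 of 75 and 0 of 216 reads. A start 1 base inside moves the seed by a base. The modal length of miR-10b-5p was 23 nt in the rat and 24 nt in the mouse.

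The mix of miRNAs differed between the libraries. Shares below are of the 4592 mouse and 3124 rat miRNA reads with a precursor label, and carry the limit of labelling given above. The miR-10 family list, which holds miR-10, miR-99, miR-100 and miR-125, had 1802 mouse reads (39.2%) and 639 rat reads (20.5%), and 52.6% and 27.3% of mature-row reads. Within it miR-10b-5p had 21.1% (19.9 to 22.3) in the mouse and 10.5% (9.45 to 11.6) in the rat, and miR-10a-5p 16.7% (15.7 to 17.8) and 8.07% (7.14 to 9.08). Both members stood at about the same ratio, 2.01 and 2.07 times higher in the mouse. The testis and sperm list, with miR-191 and the miR-34 family among its 15 families, had 843 mouse reads (18.4%) and 859 rat reads (27.5%), and 12% and 37.7% of mature-row reads. miR-191-5p alone gave 682 and 322 of these.

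Other lists are given with their share of the mature-row reads, since the direction was not always the same there. The miR-30 family had 230 mouse reads (5.01%) and 314 rat reads (10.1%), and 1.87% and 2.07% of the mature-row reads. let-7, a family that rises in differentiated cells, had 63 (1.37%) and 130 (4.16%), but 2.64% of mouse and 1.99% of rat mature-row reads, the opposite order. The miR-15/16 list had 26 (0.566%) and 159 (5.09%), and 5.52% and 12.1% of mature-row reads. All 159 rat reads were of miR-16-5p, and 46 rat precursor-assigned reads that start as miR-15b-5p were not counted in the list. The miR-29 family, known to target collagens, had 6 (0.131%) and 55 (1.76%), and 0.0170% and 0.871% of mature-row reads. The list of miR-17-92 and its paralogues had 132 (2.87%) and 42 (1.34%), of which miR-92a-3p had 113 and 24. The share of this list in the mature-row reads ran the other way, at 0.434% and 0.694%. The list of miR-148 and miR-152 had 57 (1.24%) and 58 (1.86%) reads, against 0.676% and 0.570% of mature-row reads. The imprinted clusters had 9 (0.196%) and 28 (0.896%), against 1.70% and 0.636%, so both turned as well.

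Among single miRNAs, miR-34b-3p was 16.3 times higher in the rat, with 222 against 20 reads. miR-34c-5p was 3.83 times higher, with 164 against 63, and miR-21a-5p 4.23 times, with 216 against 75. miR-140-3p was 5.63 times higher, with 157 against 41, and miR-29a-3p 12.2 times, with 50 against 6. In the mature rows miR-34b-3p had 563 rat and 68 mouse reads, miR-34c-5p 5785 and 255, miR-21a-5p 398 and 51, and miR-29a-3p 204 and 4, so these 4 were also higher in the rat under the other label. let-7i-5p, also among the sequences labelled differently, had 23 rat and 0 mouse reads. With 3 counts put in place of the mouse 0 it was 11.3-fold higher in the rat, a ratio that leaves out counting error. In the mouse, miR-143-3p was 13.3 times and miR-146b-5p 27.6 times higher, both with many mouse reads that equal mature rows of the rat, and miR-92a-3p 3.20 times. miR-486-5p, an erythroid miRNA, had 48 mouse and 0 rat reads. This is 10.9-fold higher in the mouse with 3 counts put in place of the rat 0, a ratio that leaves out counting error.

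**Figure D5:**
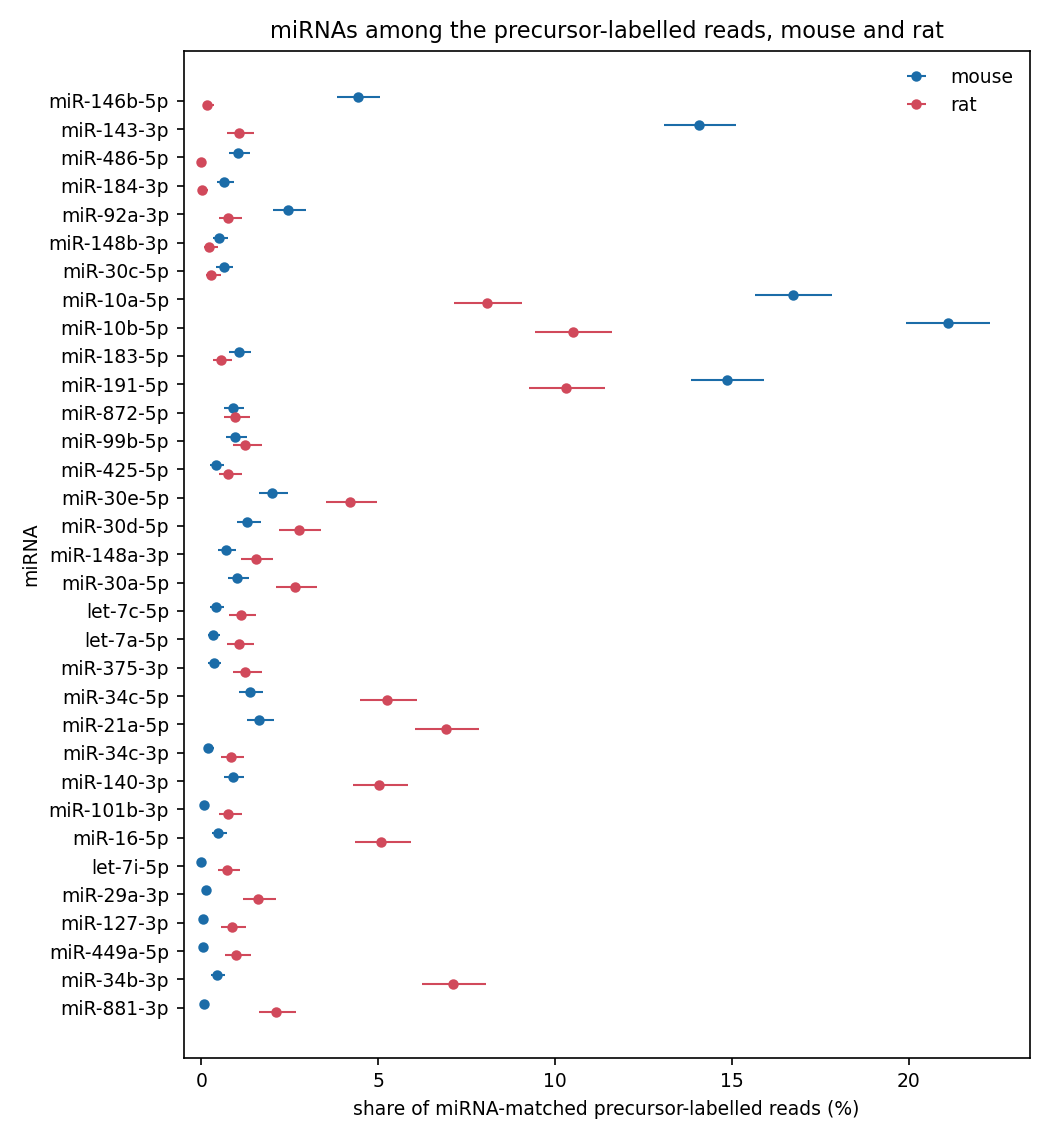
Share of miRNA reads with a precursor label (percent, horizontal) for miRNAs with at least 20 such reads in 1 library (vertical), in the mouse (blue) and the rat (red), with 95% counting intervals, sorted by the ratio of mouse to rat. miR-10b-5p leads both libraries, followed in the mouse by miR-10a-5p, then by miR-191-5p and miR-143-3p, and in the rat by miR-191-5p.

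The rat entry mir-883 held 89 reads, 63 of them of the sequence below. By sequence, 66 of the 89 reads were placed at miR-881-3p, a member of the X-linked cluster expressed in the testis, with mismatches to the mouse hairpin. By their first 18 bases, 81 rat precursor-assigned reads of any entry were also named miR-881-3p. The name by sequence thus differed from the name of the entry. In the mouse, 4 precursor reads were placed at miR-881-3p.
mir-883 rat read: taactgtggcatttctgaataga

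Markers of the cells a sperm preparation could hold were counted in the same reads. The germ cell list, whose 5 families are all in the testis and sperm list too, had 151 mouse reads (3.29%) and 444 rat reads (14.2%), and 1.95% and 26.3% of mature-row reads. All its rat precursor reads were of miR-34 and miR-449. Members of miR-465, miR-743 and miR-871 had precursor reads in the mouse only, led by miR-465c-5p with 17. Rat forms of these that differ from the mouse hairpins can be missed. The list of duct epithelium had 26 (0.566%) and 52 (1.66%), but 2.62% and 1.14% of mature-row reads, so its order turned with the label. Stroma and smooth muscle had 650 (14.2%) and 36 (1.15%), with 10.3% and 3.25% of mature-row reads. Blood and leukocytes had 60 (1.31%) and 6 (0.192%), with 0.183% and 0.0116%. miR-143-3p made up 646 of the 650 mouse stroma reads and miR-486-5p made up 48 of the 60 blood reads. The part of such cells in the differences between the libraries was not tested.

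Reads assigned to the minus strand of an entry were rare, with 147 mouse reads (2.01%, 1.70 to 2.35) and 316 rat reads (0.881%, 0.787 to 0.983). Without mir-689 the shares were 2.12% and 8.09%. Turned to the strand that was sequenced, 57 mouse and 137 rat reads were sense miRNA sequences, and 145 of the rat reads were 3-base repeats. The leading mouse sequence, with 28 reads, was miR-486-5p with 1 added base, assigned to the minus strand of Mir3107. In the rat a form of miR-29a-3p with 1 added base had 18 such reads and one of let-7c-5p had 10.

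The libraries shared 244 precursor-assigned sequences, which were 18.5% of the mouse and 10.5% of the rat sequences. They held 46.6% of mouse reads and 8.60% of rat reads. Of the shared sequences 194 were miRNA by sequence, and these held 69.3% of mouse and 78.5% of rat miRNA reads. The identical forms of miR-191-5p, miR-10a-5p and miR-10b-5p printed above are among them.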

How the data were processed

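For each distinct sequence the authors deposited a read count, a strand, an assigned entry and mismatches (at most 2), per the file headers. The submitters' processing notes name Bowtie 0.12.7 and the builds rn5 and mm9. No source used here gives the adapter trimming or the order of the databases. Listed totals were 691381 mouse and 2102735 rat reads. Identifiers rank sequences by count, and 78279 mouse and 63001 rat identifiers are not listed, so shares are of listed reads. Mouse sequences without a count, 53 of them precursor-assigned and the others under other labels, have a date in place of their identifier. They add nothing to the listed total. In an alternative the month was read as the count for all of them.

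Sequences on the minus strand were reverse-complemented. Reads were placed without gaps, sense strand, in 991 mouse RefSeq hairpins (GRCm38.p6), with at most 2 mismatches, at least 15 nt of overlap with a mature arm and a 5′ shift of at most 6 nt. For 8 miRNAs the mature form came from the deposited mature rows. Of the GenBank entries, 115 of 139 in the mouse and 0 of 117 in the rat had a mouse symbol. The placement was tested on simulated data.

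With 1 library per species there was no test. Intervals are exact (scipy 1.17.1, Python 3.11.15) and cover counting error only, since PCR copies are not independent molecules. In a ratio, a count of 0 was replaced by 3 counts. Figures were drawn with matplotlib 3.10.9. The miRNAs named were the 10 entries with most reads, the largest ratios each way and those at 0 in one library (among those with at least 20 reads in one), members of 13 lists, and those chosen for their ends after values were seen. Members and lists were chosen with earlier results of these data known. The alternatives covered the database, mismatches, minimum counts, distinct sequences and shared runs.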

Additional observations from a re-analysis of the deposited data

How the results depend on the processing

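Values are differences, mouse minus rat, in percentage points. As reported they were -0.646 for the share of listed reads, 3.34 for 24 nt, 22.1 for 20 to 24 nt, 1.12 for the minus strand, -29.8 for reads without mismatch, 0 for equality with a mature row, -79.3 for the family mir-689, which led in the rat only, and 40.0 for a 5′ T. In that order of quantities, and giving those that moved beyond counting error or turned, Rfam entries alone gave -1.20, -27.4 (turned), 9.18, 2.82, -52.2, -68.8 (mir-689) and 56.4 (5′ T). Counting each distinct sequence as 1 gave -0.203, 9.61, 12.4, -0.514 (turned, but within counting error of 0), 3.53 (turned), -38.7 (mir-689) and 15.3 (5′ T). Reads without mismatch gave -0.843, 8.01, 19.0, 0.277 and 27.5 (5′ T), and could give no value for the share without mismatch. Sequences of at least 10 reads gave -0.755, 6.19, 29.7, 0.310, -88.5 (mir-689) and 46.4 (5′ T). Reading the month as the count of every mouse sequence without one, under any label, gave -0.611 (listed reads), 21.1 (20 to 24 nt) and -78.0 (mir-689). The precursor-assigned mouse reads were then 7826 of 714352 listed reads. Leaving out the most abundant sequence of each library gave -0.338 (listed reads), 18.3 (24 nt), 32.6 (20 to 24 nt), -75.0 (mir-689) and 42.0 (5′ T). Leaving out reads that share a run of 18 bases with tRNA, rRNA or mitochondrial rows gave -0.412 (listed reads), 9.23 (20 to 24 nt), -31.8 (without mismatch), -76.7 (mir-689) and 47.1 (5′ T). Per listed read, mir-689 differed by -1.42. Equality with a mature row became 51.5 by the first 18 bases, 10.9 with mature rows of either library and 33.1 by the first 18 bases of RefSeq mature miRNAs.

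Chosen after seeing the data, leaving out mir-689 gave 0.771 (listed reads, turned), 13.7 (24 nt), 6.48 (20 to 24 nt), -5.97 (minus strand, turned), 1.52 (without mismatch, turned, but within counting error of 0) and 9.16 (5′ T). Keeping only miRNA reads gave 0.516 (listed reads, turned), 23.4 (24 nt), -0.607 (20 to 24 nt, turned, but within counting error of 0), -3.14 (minus strand, turned), -2.28 (without mismatch), 0 (mir-689) and 9.89 (5′ T). The other 20 of the values under alternatives stayed within counting error. No paired analysis was possible because each species has 1 library. Counting alone limits miRNAs with few reads, and the number of animals, the unlisted reads and the mouse reference used for rat reads limit all comparisons. Where the cause of a change is not the make-up of the alternative itself, the cause was not tested.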
